A study of Mus musculus with 16 samples.

Results

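Integrins and laminins are the receptors and the ligands through which cells hold on to the basement membrane, and their chains were followed here in the outflow valves of mouse embryos. The set was chosen by name alone. It takes rows of the expression table whose mouse symbol is that of an integrin alpha or beta chain or of a laminin alpha, beta or gamma chain, and it leaves out the binding proteins named after integrins, such as Itgb1bp1. It holds 28 of the 13964 genes in the table, namely 20 of the 27 annotated integrin chains (14 alpha and 6 beta) and 8 laminin chains. Other chains of both families were not analysed here.

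The RNA came from embryos of the C57BL/6 strain at stage E14.5, in valves cut out by laser microdissection. There were 4 groups of 4 libraries: mutant aortic valve, wild-type aortic valve, mutant pulmonary valve and wild-type pulmonary valve. Mutants were Jag1flox;Nkx2.5-Cre, so that Jag1, which encodes a Notch ligand, is deleted only in cells with a history of Nkx2-5 expression, and the labels do not say whether the wild-type embryos carried Cre or how many embryos went into a library. Aortic libraries were prepared as batch 1 and pulmonary libraries as batch 2, so a difference between valves cannot be told apart from one between batches, and within a valve the mutant and wild-type libraries with the same number share a litter. The labels do not say how the captured areas were picked. The 4 libraries of a group come from 4 different litters, but there are 5 litters in all and 3 of them gave libraries of both valves. The labels do not say whether aortic and pulmonary libraries of a litter share an embryo.

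An integrin is a pair of an alpha and a beta chain that spans the cell membrane, binds a matrix protein outside and connects to actin through talin and kindlin inside. A laminin is a cross-shaped trimer of an alpha, a beta and a gamma chain, and laminin trimers polymerise into the sheet on which a basement membrane is built. In the developing valve the endocardium rests on such a membrane, while the mesenchyme beneath it lies in a loose matrix of collagen, fibronectin, versican and hyaluronan.

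Values are the deposited normalised counts, which are read counts scaled to a common library size. Depth was 4560219 to 8684366 reads per library (median 7367059), and 3 reads correspond to 0.351 to 0.695 normalised counts. Jag1 was 9.90, 11.4, 5.93 and 10.2 normalised counts in mutant aortic libraries 1 to 4, against 20.2, 54.7, 39.7 and 18.8 in wild-type aortic libraries 1 to 4. It was 12.4, 4.70, 3.78 and 1.85 in mutant pulmonary libraries 1 to 4, against 13.6, 19.2, 25.7 and 15.4 in wild-type pulmonary libraries 1 to 4. Every litter pair thus had less Jag1 in the mutant.

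The libraries differ in tissue content. Mylpf, a light chain of fast skeletal muscle, was at 0.569 to 23.2 normalised counts in 6 libraries (mutant aortic 4, wild-type aortic 2 and 4, mutant pulmonary 4, wild-type pulmonary 2 and 4) and at 278 to 900 in the other 10. Tbx20, a transcription factor of the endocardial cushions, was 1032 to 1744 in those 6 libraries. Of the 10 libraries with Mylpf of at least 100, 5 had Tbx20 at 549 to 976 and 5 at only 98 to 123 (mutant aortic 1, wild-type aortic 1 and 3, mutant pulmonary 1, wild-type pulmonary 1). In each valve 1 mutant library and 2 wild-type libraries lie below Mylpf 100, so the split is not balanced between the genotypes.

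RefSeq start-site windows (GRCm38.p6, 250 bases before to 50 after the start) were found for 20 of the 28 members. The windows of 4 members that the results turn on are shown 5′ to 3′ on the gene's own strand, with GC boxes (GGGCGG, either strand) in capitals. Itgb1 (chr8:128685404-128685703, plus strand) and Lamb1 (chr12:31265043-31265342, plus strand) are chains with separate levels on the 2 sides of the Mylpf split. Itga4 (chr2:79255176-79255475, plus strand) went the other way, and Itga10 (chr3:96645334-96645633, plus strand) was the member with the lowest level in mutants relative to wild type.
Itgb1: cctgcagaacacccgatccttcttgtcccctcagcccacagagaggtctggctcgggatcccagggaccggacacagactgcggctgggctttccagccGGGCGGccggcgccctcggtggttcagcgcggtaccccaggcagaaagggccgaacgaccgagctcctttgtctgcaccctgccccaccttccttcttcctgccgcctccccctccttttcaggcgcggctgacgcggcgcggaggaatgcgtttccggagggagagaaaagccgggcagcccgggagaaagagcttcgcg
Lamb1: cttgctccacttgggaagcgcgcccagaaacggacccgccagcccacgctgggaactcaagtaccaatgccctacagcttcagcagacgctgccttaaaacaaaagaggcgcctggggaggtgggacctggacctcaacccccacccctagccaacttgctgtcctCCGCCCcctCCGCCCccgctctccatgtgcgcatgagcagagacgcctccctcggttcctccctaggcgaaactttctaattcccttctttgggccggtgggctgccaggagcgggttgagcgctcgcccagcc
Itga4: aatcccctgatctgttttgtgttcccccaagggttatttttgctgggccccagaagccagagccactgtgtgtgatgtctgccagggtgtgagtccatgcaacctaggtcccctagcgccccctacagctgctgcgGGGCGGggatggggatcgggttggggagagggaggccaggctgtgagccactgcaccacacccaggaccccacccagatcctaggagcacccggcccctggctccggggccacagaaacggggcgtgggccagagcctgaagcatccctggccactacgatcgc
Itga10: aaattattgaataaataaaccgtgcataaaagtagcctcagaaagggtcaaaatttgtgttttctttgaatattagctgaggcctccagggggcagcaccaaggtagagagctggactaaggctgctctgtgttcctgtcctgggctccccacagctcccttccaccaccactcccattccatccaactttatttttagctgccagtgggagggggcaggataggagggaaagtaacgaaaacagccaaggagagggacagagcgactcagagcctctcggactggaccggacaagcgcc
The Lamb1 window holds 2 GC boxes, the Itgb1 and Itga4 windows 1 each and the Itga10 window 0. Over all members with an entry, some with more than 1 start, 12 of 22 windows hold a GC box, against 35.7% of the 32851 windows in the table. TATAAA is in 0 of the 22 and in 13.6% of all windows, the E-box CANNTG in 18 of 22 and 72.3%, and GTGGGAA, the core of the site of the Notch effector RBPJ, in 0 of 22 and 6.38%. The T-box half-site GGTGTGA is in 1 of 22, that of Itga4, and in 3.98% of all windows. Both strands were searched, and no match of one motif overlapped a match of another in the 4 windows shown.

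Compared per kilobase of the longest coding transcript, the most abundant member was Itgb1, the beta chain that pairs with most alpha chains, at a median of 81.5 normalised counts per kilobase over the 16 libraries. Lamc1, the gamma chain of most laminins, followed at 31.8 per kilobase. Next came Itga6, a laminin receptor chain, at 28.3 per kilobase, and Itga5, the alpha chain of the main fibronectin receptor, at 26.9 per kilobase. Lama4, the alpha chain of the laminins of vessel walls and mesenchyme, stood at 22.8, Lamb1 at 18.4 and Itga9, a receptor chain for tenascin-C and VCAM1, at 17.5 per kilobase. These were the 7 members with a median of at least 100 normalised counts. Taken over all libraries, the ranges of neighbours in this order overlapped throughout. For example, Itgb1 spanned 32.0 to 145 normalised counts per kilobase and Lamc1 7.16 to 51.2. Within each of the 16 libraries, Itgb1 was nevertheless above Lamc1 per kilobase.

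A middle group had medians between 1.43 and 9.80 normalised counts per kilobase. Itgav, the alpha chain shared by several RGD-binding receptors, led it at 9.80, followed by Lamb2 at 8.53, Itga8, a nephronectin receptor chain, at 8.42, and Itgb5, a vitronectin receptor chain, at 6.89. Itgb4, the Itga6 partner that anchors hemidesmosomes in epithelia, was at 6.03, and Itga4, which binds VCAM1 and fibronectin, at 3.97. Lama2, the laminin chain of muscle basement membranes, was at 3.54, Itgb3, the partner of Itgav and Itga2b, at 3.35, and Lama5, a laminin chain of epithelia and vessels, at 3.27 per kilobase. The collagen receptor chains Itga2, Itga1 and Itga10 were at 2.87, 2.33 and 2.19 per kilobase. Itgb8, an Itgav partner that activates TGF-beta, was at 1.43, and with 4.44 to 15.8 normalised counts it had the smallest ratio of highest to lowest library among the members not listed at 0.

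Itga3, a laminin receptor chain, had a median of 1.04 and Itga11, a receptor chain for fibrillar collagen, of 1.01 normalised counts per kilobase. The 6 members with a median below 5 normalised counts were Itgam (0.656 per kilobase), Itgb6 (0.583), Itga2b (0.367), Itgal (0.356), Lama3 (0.332) and Lama1 (0.164). Itgam and Itgal mark myeloid cells and leukocytes, Itga2b platelets and their precursors, and Itgb6 and Lama3 epithelia, while Lama1 belongs to the first basement membranes of the embryo. Itgb6 was listed at 0 in 5 libraries, Itgal in 2 and Itga2b in 1. The summed level of 6 macrophage markers was 21.9 to 50.3 in mutant and 19.3 to 53.0 normalised counts in wild-type libraries, and that of 4 epithelial markers 0.284 to 38.0 in mutant and 0 to 49.98 in wild-type libraries.

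The leading alpha and beta chains of the laminin set were the same in all 16 libraries, while the smaller shares varied. Lama4 supplied 71.1% to 83.4% of the per-kilobase level of all 5 laminin alpha chains (median 76.5%), Lama2 6.61% to 16.9% and Lama5 4.32% to 16.7%. Lama3 supplied 0.292% to 5.34% and Lama1 0.0332% to 4.24%. Of the beta chains Lamb1 supplied 54.7% to 78.5% and Lamb2 21.5% to 45.3%. The Lama4 share was 72.4% to 82.2% in the 8 mutant libraries (median 75.0%) and 71.1% to 83.4% in the 8 wild-type libraries (median 78.7%). These ranges overlap almost completely, so Lama4 was the leading alpha chain in all 16 libraries whatever the valve, genotype or muscle content. These shares are ratios within a library, and they do not depend on how the libraries were scaled.

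**Figure D1:**
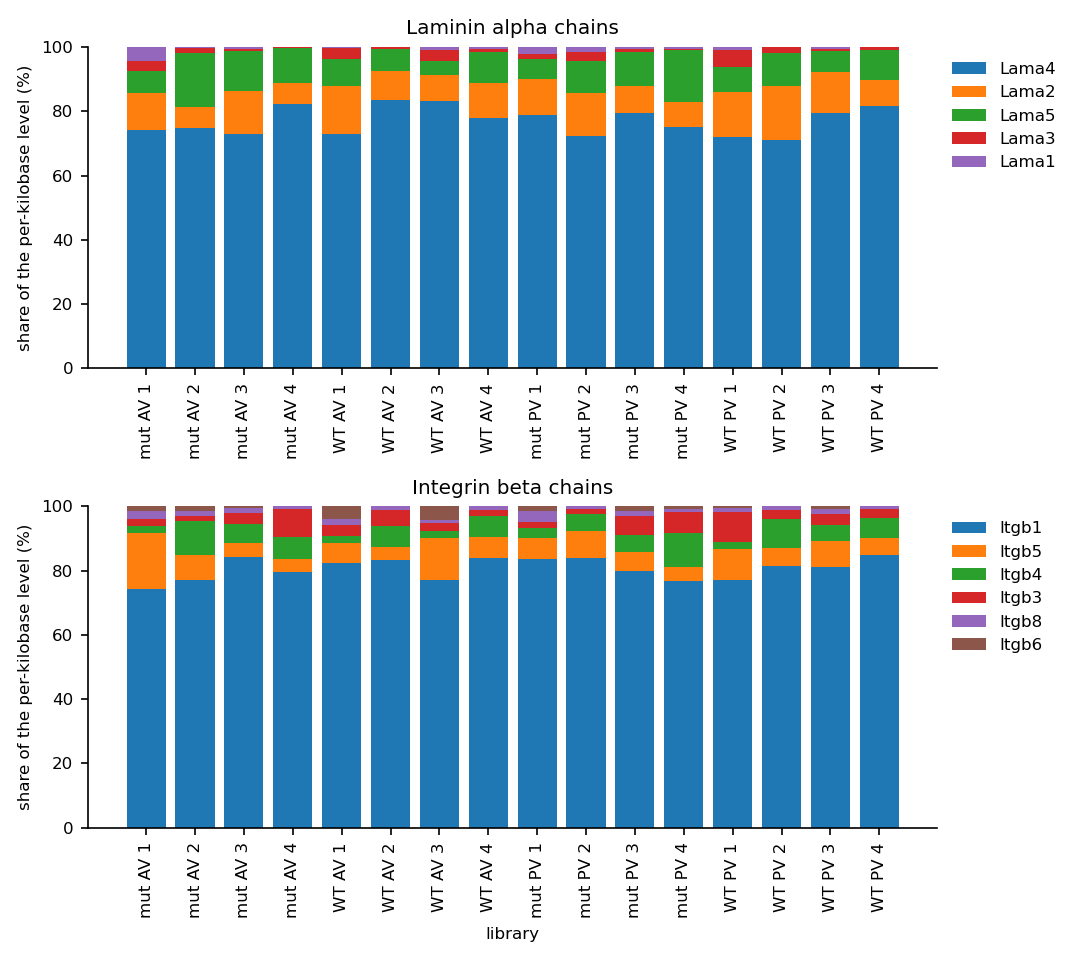
Shares of the 5 laminin alpha chains (upper panel) and the 6 integrin beta chains (lower panel) in each of the 16 libraries, as percent of the summed normalised count per kilobase of the family (mut, mutant; WT, wild type; AV, aortic valve; PV, pulmonary valve). Lama4 stays between 71.1% and 83.4% and Itgb1 between 74.4% and 84.8%.

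Among integrin beta chains, Itgb1 supplied 74.4% to 84.8% of the per-kilobase level (median 81.2%), as the stacked shares by library show. The order of the other beta chains changed between libraries. Itgb5 supplied 3.97% to 17.3%, Itgb4 2.01% to 10.7%, Itgb3 1.49% to 9.11%, Itgb8 0.778% to 3.56% and Itgb6 0% to 4.17%. For example, Itgb4 was at 10.7% and Itgb5 at 4.42% in mutant pulmonary library 4, against 2.36% and 17.3% in mutant aortic library 1. Among alpha chains Itga6 supplied 20.9% to 33.1%, Itga5 15.6% to 34.8%, Itga9 6.15% to 21.6%, Itgav 5.76% to 14.1% and Itga8 3.60% to 10.4%. The Itga4 share moved with tissue content. It was 0.817% to 2.72% in the 6 libraries with Mylpf below 100, against 1.66% to 26.6% in the 10 others, and 9.64% to 26.6% in the 5 of those with Tbx20 below 200. Haematopoietic cells carry Itga4 too: the 5 erythroid markers summed to 566 to 21276 normalised counts in the 6 libraries and 1140.1 to 23188 in the 10, and their part in the Itga4 share was not tested.

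For the question of the design, whether loss of Jag1 alters these chains, 0 of the 28 members passed an adjusted p of 0.05 in limma, in either valve or in the mean of both. The background was 0% of 13963 genes in each of these 3 comparisons (0 genes), which holds for all genes and not for the members alone. All 28 had passed the filter on low values. At an unadjusted p under 0.05 the aortic comparison had 0 members against 1.40% of genes (196), the pulmonary comparison 1 member against 3.13% (437), and the mean of both valves 1 member against 2.79% (389). These unadjusted counts moved with the libraries used. With the Mylpf split as a covariate they were 4 members among 811 genes in aortic valves and 0 among 660 in pulmonary valves. In the mean they were 4 among 945. The 4 aortic members were all higher in mutants, as were 3 of the 4 in the mean. Without the 5 libraries of Tbx20 below 200 the unadjusted counts were 1 among 581, 1 among 737 and 4 among 1129 in the same order. Those last 4 were all lower in mutants. Each of these gene counts is out of 13963 tested. With edgeR on the recovered reads the adjusted count was also 0 genes in the 3 comparisons, and with DESeq2 it was 0, 2 (0.0143%) and 5 (0.0358%) genes, of which 0 are members. No member had mutant and wild-type libraries without overlap in either valve, where the background was 0.759% of genes higher and 0.824% lower in aortic mutants, and 0.938% higher and 1.05% lower in pulmonary mutants.

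Itga10 (chr3:96645584-96664519, plus strand), a collagen receptor chain best known from cartilage, had the smallest p of the 28 in the mean of both valves. It was 2.97, 10.02, 9.84 and 6.83 normalised counts in mutant aortic libraries 1 to 4, against 3.53, 32.4, 25.2 and 28.8 in wild-type aortic libraries 1 to 4. The pulmonary values were 7.48, 15.2, 3.64 and 12.1 in mutants 1 to 4, against 9.55, 30.7, 28.0 and 23.6 in wild types 1 to 4. In each valve 3 wild-type libraries lie above every mutant library, and wild-type library 1 lies among the mutants.

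The Itga10 means were 7.41 ± 3.31 normalised counts in mutant and 22.5 ± 13.0 in wild-type aortic valves, and 9.60 ± 5.07 in mutant and 23.0 ± 9.42 in wild-type pulmonary valves (SD, n = 4 each). On the log2(value + 1) scale the difference of mutant minus wild type, averaged over the valves, was -1.23 (SE 0.43, 95% interval -2.13 to -0.33, limma adjusted p = 1.00). It was -1.25 (SE 0.60, interval -2.52 to 0.027) in aortic and -1.21 (SE 0.60, interval -2.49 to 0.065) in pulmonary valves. The mutant value was the lower one in 8 of 8 litter pairs, as for 0.387% of all genes (54), and it was the only member of which that holds. These 8 pairs come from 5 litters, and the fit takes the libraries of both valves as independent. No member was higher in the mutant in all 8 pairs, as 0.466% of genes were. With the litter as a block the adjusted p of limma was 0.756, so the call did not change.

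Mylpf and Tbx20 differ within these pairs, in some of them across the values of 100 or 200. In aortic pair 2 and pulmonary pair 2 the mutant library has Mylpf of at least 100 and the wild-type library does not, and in aortic pair 3 the Tbx20 levels are 763 in the mutant and 123 in the wild type. Itga10 differed by -0.19, -1.93, -0.31, -2.65 and -0.91 on the log2 scale in the 5 other pairs (aortic 1 and 4, pulmonary 1, 3 and 4). With the Mylpf split as a covariate the mean difference was -1.04 (limma adjusted p = 0.652), and without the 5 libraries of Tbx20 below 200 it was -1.599 (limma adjusted p = 0.428). Part of Itga10 cannot be told from its neighbour, since 33.5% of its exon bases are shared with the annotated gene Gm42957 on the same strand.

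**Figure D2:**
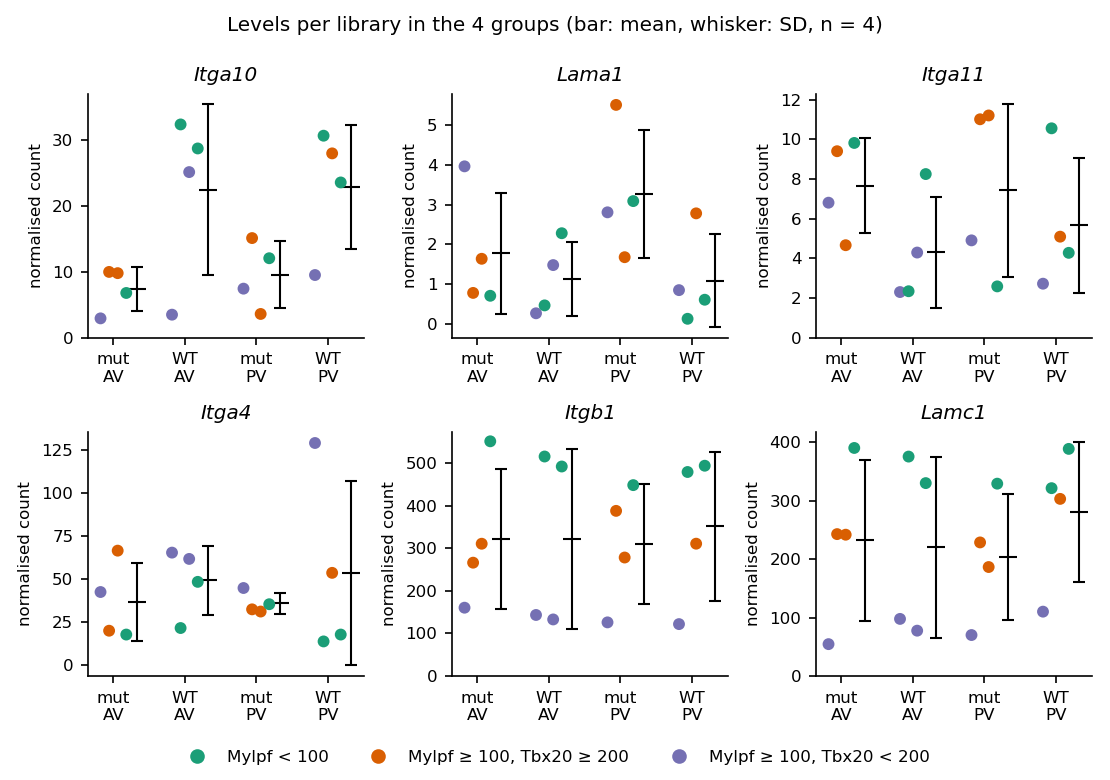
Normalised counts of 6 members in each library of the 4 groups (left to right: mutant aortic, wild-type aortic, mutant pulmonary, wild-type pulmonary), coloured by Mylpf and Tbx20 level, with the group mean and SD (n = 4). Itga10 is low in the mutants and in wild-type library 1 of each valve, while Itgb1 and Lamc1 follow the colours, from 122 to 551 and from 54.6 to 390.4.

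For the other collagen receptor chains, Itga11, Itga1 and Itga2, the 95% interval of the mean difference included 0. Itga11 (mutant aortic 6.81, 9.40, 4.67 and 9.81, against wild-type aortic 2.31, 2.35, 4.30 and 8.25 normalised counts) averaged 7.55 ± 3.26 in the 8 mutant and 4.98 ± 2.97 in the 8 wild-type libraries. It had the higher value in the mutant in 7 of 8 litter pairs, the 1 member at 7 or more, against 4.13% of genes, and its mean log2 difference was 0.55 (SE 0.35, interval -0.19 to 1.28). The difference was 0.80 (SE 0.49) in aortic valves. Its pulmonary values were 4.91, 11.01, 11.2 and 2.59 in mutants 1 to 4, against 2.73, 10.6, 5.10 and 4.28 in wild types 1 to 4, with a difference of 0.29 (SE 0.49). In the 6 libraries with Mylpf below 100 the mean difference of Itga11 turned to -0.081. Itga1 was lower in the mutant in 6 of 8 pairs, among them all 4 pulmonary pairs, with log2 differences from -0.60 to 1.14 (the highest in aortic pair 3) and a mean of -0.063 (SE 0.46). Itga2 was lower in 4 pairs and higher in 4, from -0.54 to 2.47, with a mean of 0.62 (SE 0.69).

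Lama1 (chr17:67697259-67822647, plus strand) was the member with an unadjusted p under 0.05 in pulmonary valves. It was 2.81, 5.50, 1.68 and 3.09 normalised counts in mutant pulmonary libraries 1 to 4, against 0.853, 0.134, 2.78 and 0.612 in wild-type pulmonary libraries 1 to 4. The log2 difference was 1.10 (SE 0.50, interval 0.051 to 2.15, limma adjusted p = 1.00), and blocking by litter gave a limma adjusted p of 0.877. Under that block the pulmonary member with an unadjusted p under 0.05 was Itga10 and not Lama1, and in aortic valves it was Itga10 too. Aortic values were 3.96, 0.783, 1.64 and 0.711 in mutants, against 0.272, 0.470, 1.48 and 2.28 in wild types, and the mean of both valves differed by 0.72 (SE 0.35, interval -0.018 to 1.47). The gene rests on 1 to 41 reads per library, with a median of 11, so these values are close to the counting limit.

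The rest of the members with the 5 smallest p in a comparison had wide errors. In aortic valves Itga3 averaged 9.60 ± 6.22 normalised counts in mutants and 4.43 ± 3.90 in wild types (log2 1.03, SE 0.64), Itga2b 3.08 ± 1.52 and 1.74 ± 2.54 (log2 0.89, SE 0.59), and Lama3 2.77 ± 1.33 and 4.88 ± 1.31 (log2 -0.68, SE 0.51), each as mutant and then wild type. Averaged over both valves Lama3 differed by -0.48 (SE 0.36) and Itga2b by 0.54 (SE 0.42). In pulmonary valves Itgb6 averaged 3.65 ± 2.98 in mutants and 1.40 ± 2.08 in wild types (log2 0.97, SE 0.90), Lama2 28.1 ± 12.6 and 42.9 ± 21.9 (log2 -0.52, SE 0.53), and Lamb2 38.0 ± 19.9 and 56.1 ± 24.4 (log2 -0.56, SE 0.62), in the same order. Lama2 and Lamb1 had the lower value in the mutant in 7 of 8 litter pairs, which with Itga10 makes 3 of 28 members at 7 or more pairs, against 3.58% of genes. The pairs are not matched in Mylpf. The mean difference of Lama2 over both valves was -0.38, and -0.13 with the Mylpf split as a covariate. That of Lamb1 was -0.20, and it turned to 0.13 with the covariate.

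For Itgb1 and Lamc1, the most abundant chains, the means of mutants and wild types differed by less than their SD. Itgb1 averaged 316 ± 143 normalised counts in the 8 mutant and 336 ± 180.1 in the 8 wild-type libraries, and Lamc1 218 ± 115 and 251 ± 132 in the same order. Their spread within a group exceeded any difference between the groups: Itgb1 was 161, 266, 311 and 551 in mutant aortic libraries 1 to 4, against 143, 516, 133 and 492 in wild-type aortic libraries 1 to 4. Over the 28 members the median log2 difference in the mean of both valves was 0.015, against 0.013 over all genes, with 15 members above 0 and 13 below. In aortic valves it was 0.24 (21 above, 7 below), against 0.020 over all genes, and in pulmonary valves -0.19 (10 above, 18 below), against 0.0087. These directions were not stable. Without the 5 libraries of Tbx20 below 200 the aortic split turned to 7 above and 21 below (median -0.28), and the mean of both valves had 9 above and 19 below (median -0.29). With the Mylpf split as a covariate the mean of both valves had 23 above and 5 below (median 0.34), and the pulmonary split turned to 19 above and 9 below (median 0.16). Leaving out 1 library also moved them. The aortic split was 14 above and 14 below without wild-type aortic library 1 or 3. The pulmonary split turned to 21 above and 7 below without mutant pulmonary library 1 (median 0.18) and to 15 above and 13 below without wild-type pulmonary library 4 (median 0.054). In the mean of both valves 11 members were above 0 without wild-type aortic 1, mutant aortic 4 or wild-type pulmonary 1. They were 12 without wild-type aortic 3 or mutant pulmonary 4, and 13 without mutant pulmonary 3. Other omissions moved the count upward. It was 23 without mutant pulmonary 1, 22 without mutant aortic 1 and 21 without wild-type aortic 4. It was 19 without wild-type pulmonary 2, 18 without wild-type aortic 2 and 16 without wild-type pulmonary 4.

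**Figure D3:**
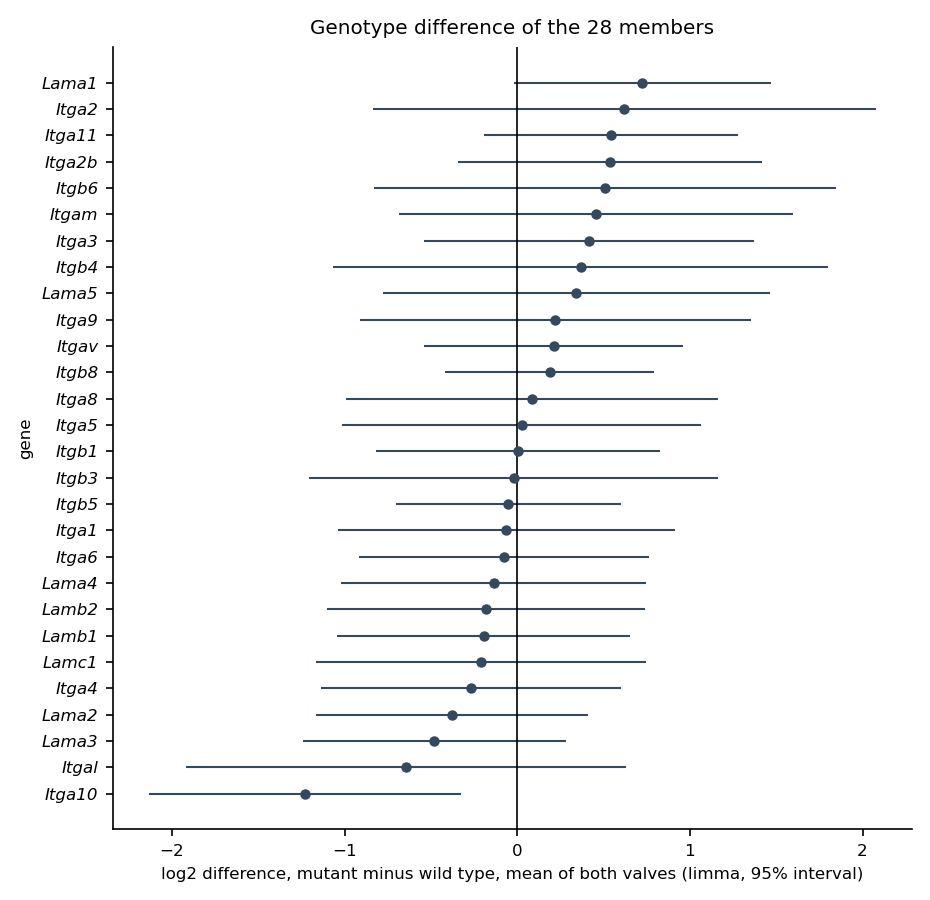
Log2 difference of mutant minus wild type for the 28 members, averaged over both valves, with its 95% interval from limma on log2(normalised count + 1), 16 libraries. The interval of Itga10, from -2.13 to -0.33, is the one that does not reach 0, and its adjusted p is 1.00.

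Whether the genotype difference itself differed between the valves was tested as an interaction, and 0 members and 0 genes passed (0%). At an unadjusted p under 0.05 there were 0 members, against 1.89% of genes (264) in limma. The members with the 5 smallest p were Itga3 (log2 -1.22, SE 0.91), Lama1 (0.75, SE 0.70), Itga5 (-0.98, SE 0.98), Lamb2 (-0.77, SE 0.87) and Itgb5 (-0.54, SE 0.62), as pulmonary minus aortic. The Itgb5 value turned to 0.19 without the 5 libraries of Tbx20 below 200. Itga5 shows the pattern: it averaged 134 ± 88.9 normalised counts in mutant and 98.8 ± 76.6 in wild-type aortic valves, and 117 ± 81.8 in mutant and 157 ± 84.5 in wild-type pulmonary valves (SD, n = 4 each). Lamb2 averaged 45.6 ± 27.8 and 43.6 ± 34.3 in mutant and wild-type aortic valves, and 38.0 ± 19.9 and 56.1 ± 24.4 in mutant and wild-type pulmonary valves. These differences are smaller than the SD within the groups.

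Pulmonary and aortic valves, which are also batches 2 and 1, had 0 members and 0 genes past the adjusted threshold (0%) and 0 members at an unadjusted p under 0.05, against 0.337% of genes (47). The members with the 5 smallest p had log2 differences, as pulmonary minus aortic, of -0.42 for Itga2b (SE 0.42), 0.35 for Lama2 (SE 0.37), 0.31 for Lama1 (SE 0.35), 0.27 for Itga10 (SE 0.43) and 0.31 for Itga8 (SE 0.51). The Itga10 difference turned to -0.067 without the 5 libraries of Tbx20 below 200. No member and 0% of genes had pulmonary and aortic libraries without overlap.

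Against the split by Mylpf most chains were higher in the libraries with little skeletal muscle RNA. Because the split uses a measured value, it is given as a description with no test. In the 6 libraries with Mylpf below 100, 7 of the 28 members (Lamb1, Itga2, Itgb4, Itgb1, Lamc1, Itga8 and Itga1) were above all of the 10 other libraries, where 2.60% of genes were, and 0 members were below all of them, where 3.68% of genes were. The 7 became 1 with the split at a Mylpf value of 10 (1.34% of genes), 4 at 300 (1.58%) and 5 with DESeq2 size factors (2.38%). The log2 difference of medians, Mylpf below 100 minus at least 100, was above 0 for 23 of 28 members, with a median of 1.25, against 0.0091 over all genes. It exceeded 1 for 18 of 28 members and for 9.32% of genes, and it was under -1 for 2 members and for 8.31% of genes. In bulk tissue, fewer cells of a type and less RNA per cell cannot be told apart.

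**Figure D4:**
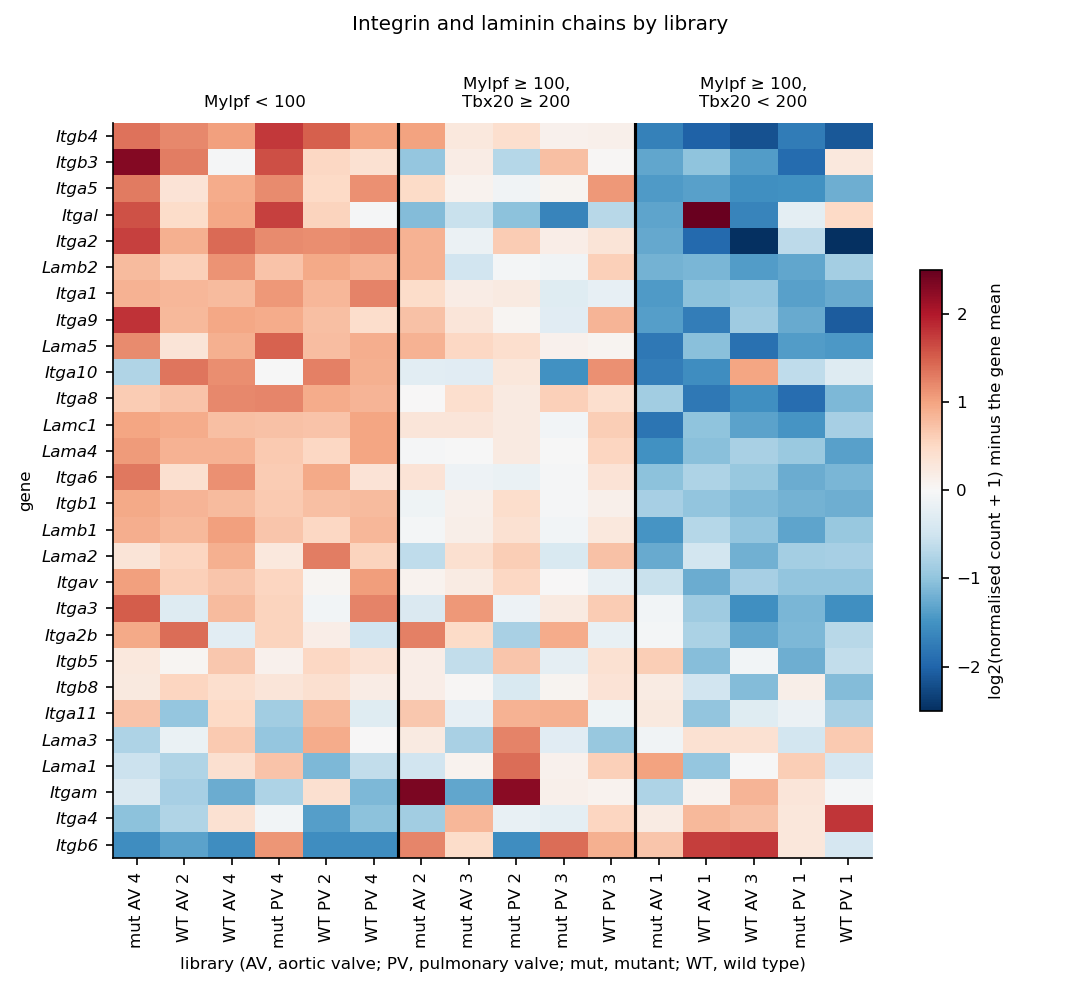
Log2(normalised count + 1) minus the gene's mean for the 28 members (rows) in the 16 libraries (columns), ordered by Mylpf and Tbx20 level (mut, mutant; WT, wild type; AV, aortic valve; PV, pulmonary valve). The 6 libraries with Mylpf below 100 are red for most members and the 5 with Tbx20 below 200 blue. Across the Mylpf split, Itga4 and Itgb6 at the foot run the other way.

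Itgb4 had the largest positive difference, 2.08 on the log2 scale. Its lowest, median and highest values were 59.7, 72.5 and 101 normalised counts in the libraries with Mylpf below 100, against 5.63, 19.96 and 59.2 in the others. The ranges touch closely, the highest of the 10 being mutant aortic library 2. Itgb1 stood at 448, 493 and 551, against 122, 213 and 388 (log2 1.25), and Lamc1 at 322, 353 and 390.4, against 54.6, 148 and 303 (log2 1.29). For both of these abundant chains the lowest of the 6 libraries lay above the highest of the 10.

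Lamb1 stood at 132, 162 and 187 normalised counts (lowest, median, highest) in the libraries with Mylpf below 100, against 32.4, 71.8 and 121 in the others (log2 1.2). Among the integrin alpha chains, Itga8 was at 56.6, 68.2 and 85.6, against 9.003, 28.0 and 55.7 (log2 1.32), and the collagen receptor chain Itga1 at 38.8, 40.6 and 53.6, against 7.67, 14.3 and 30.9 (log2 1.48). Itga2 came to 27.3, 33.9 and 48.6, against 1.02, 10.7 and 27.1 (log2 1.6), and its ranges all but meet. Itgb3 (log2 1.75), Itga5 (1.69) and Itgal (1.62) had larger differences of medians than most of these 7 but overlapped between the sets.

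**Figure D5:**
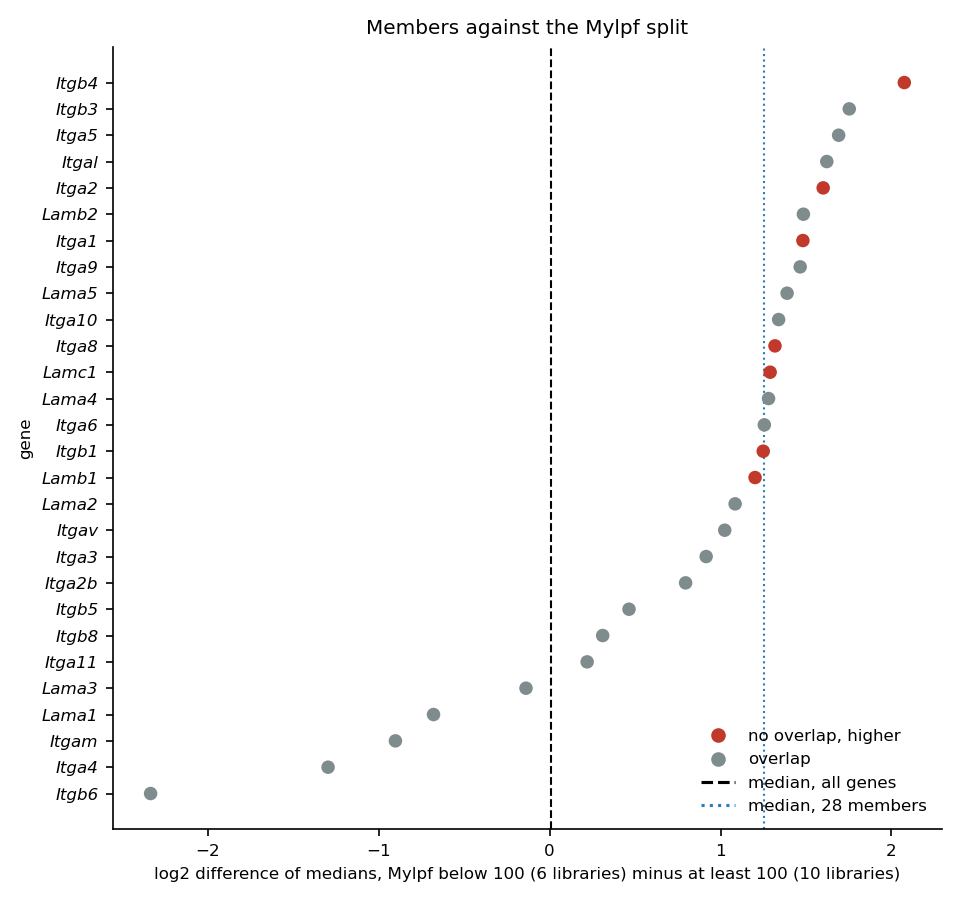
Log2 difference of medians, 6 libraries with Mylpf below 100 minus 10 libraries with Mylpf of at least 100, for each of the 28 members, with the medians of all genes (dashed, 0.0091) and of the members (dotted, 1.25). Red points mark the 7 members whose 2 sets do not overlap; 23 members lie above 0 and 5 below.

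The other laminins followed Lamc1 and Lamb1 with overlap: Lamb2 differed by 1.48, Lama5 by 1.39, Lama4 by 1.28 and Lama2 by 1.09. Of the remaining integrins with a positive difference, Itga9 was at 1.47, Itga10 at 1.34, Itga6 at 1.26, Itgav at 1.02, Itga3 at 0.92, Itga2b at 0.80, Itgb5 at 0.46, Itgb8 at 0.31 and Itga11 at 0.22. The 5 members with a negative difference were Itgb6 (-2.33), Itga4 (-1.30), Itgam (-0.90), Lama1 (-0.68) and Lama3 (-0.14). Itga4 was 13.5, 19.4 and 48.3 normalised counts (lowest, median, highest) with Mylpf below 100, against 19.7, 49.1 and 129 in the others, so it overlapped. Itgb6 was 0, 0 and 5.31 in the 6 libraries, against 0, 4.06 and 9.04 in the 10. The epithelial markers summed to 0 to 9.87 normalised counts in the 6 libraries and to 4.34 to 49.98 in the 10. Among the 10 they did not always follow Itgb6. The highest sum, 49.98, was in wild-type pulmonary library 1 with Itgb6 at 1.19. The lowest, 4.34, was in mutant pulmonary library 3 with Itgb6 at 6.72. In wild-type aortic library 3 both were high, at 40.0 and 9.04. The part of epithelial cells in the Itgb6 level was not tested.

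Markers of several tissues moved with the split as well. The 7 valve mesenchyme markers (Tbx20 among them) summed to 7329 to 9905 normalised counts in the 6 libraries with Mylpf below 100 and to 1021 to 6812 in the 10 others, and the 6 endothelial markers to 712 to 1435 and 142 to 717. The 9 skeletal muscle markers, of which Mylpf is 1, summed to 2.42 to 60.8 in the 6 and to 713 to 2320 in the 10, and 6 cardiomyocyte markers to 14.3 to 229 and 133 to 1138. The 5 smooth muscle markers overlapped, at 305 to 443 in the 6 and 170 to 546 in the 10, as did the 6 macrophage markers, at 19.3 to 50.3 and 21.9 to 53.0. The 6 neuron and Schwann cell markers came to 17.7 to 43.6 and 19.3 to 247, and the 2 megakaryocyte markers to 2.46 to 9.87 and 2.19 to 28.1. All sums are given for the 6 libraries and then the 10, and the part of any of these tissues in the levels of the chains was not tested.

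The split holds a gradient within its upper side. Among the 10 libraries with Mylpf of at least 100, 14 of 28 members were higher in all 5 libraries with Tbx20 of at least 200 than in all 5 with Tbx20 below 200 (5.87% of genes), and 0 were lower (2.04% of genes). These 14 include Itga5, Itga6, Itga9, Itgav, Lama4, Lama5 and Lamb2 beside the 7 chains that separated at Mylpf 100, and the median difference of the 28 members was 1.14. Skeletal muscle markers overlapped between these 2 sets, at 713 to 1356 normalised counts with Tbx20 of at least 200 and 734 to 2320 below it, whereas valve mesenchyme markers, which include Tbx20 (3792 to 6812 and 1021 to 1629) and endothelial markers (424 to 717 and 142 to 213) did not. Set against the 5 libraries with Tbx20 of at least 200 alone, the 6 libraries with Mylpf below 100 were higher without overlap for 8 members (3.17% of genes) and lower for 0 (4.31% of genes), with a median difference of 0.55. The members above 1 on the log2 scale then numbered 3 (4.03% of genes), against 18 (9.32% of genes) with all 10 libraries.

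The pattern was present in both valves and both genotypes. In aortic libraries alone (3 below Mylpf 100, 5 at or above) 12 members were higher without overlap, where 12.1% of genes were, and 1 was lower, where 12.2% were. In pulmonary libraries alone (3 and 5) 9 were higher and 0 lower, with 7.76% and 8.51% of genes. Wild-type libraries alone (4 and 4) gave 10 higher and 2 lower (11% and 10.1% of genes), and mutant libraries alone (2 and 6) gave 16 higher and 0 lower (13.0% and 13.8% of genes).

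Groups of proteins around the chains were followed for context, with 0 genes past the adjusted threshold of limma in any of the 5 comparisons. At an unadjusted p under 0.05 in the mean of both valves there was 1 gene among them, Icam1. Of 25 measured genes of the adhesion plate, the cytoplasmic side of integrins, 12 lay above 0 and 13 below in the mean difference of mutant minus wild type (median -0.025). The smallest p belonged to the actin-linking Parva (log2 0.23, SE 0.17), Bcar1 (0.28, SE 0.22) and Pxn, which encodes paxillin (0.18, SE 0.17). Of 17 basement membrane partners 13 lay above 0 and 4 below (median 0.14), led by Nid2, a nidogen that binds laminin (log2 -0.47, SE 0.26), Smoc2 (1.01, SE 0.78) and Bcam, a Lama5 receptor (0.58, SE 0.50). Of 20 integrin ligands 12 lay above 0 and 8 below (median 0.068).

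Icam1, a ligand of the leukocyte integrins, averaged 1.83 ± 1.23 and 1.29 ± 1.40 normalised counts in mutant aortic and pulmonary valves, against 0.521 ± 0.430 and 0.174 ± 0.347 in wild-type aortic and pulmonary valves (SD, n = 4 each). Its mean log2 difference was 0.81 (SE 0.35, limma adjusted p = 1.00), at levels near the counting limit. Vcam1, the ligand of Itga4 and Itga9, averaged 38.0 ± 12.3 in mutant and 18.4 ± 7.13 in wild-type aortic valves, and 28.9 ± 11.1 in mutant and 31.4 ± 10.1 in wild-type pulmonary valves (mean log2 difference 0.44, SE 0.25). In aortic valves the Vcam1 log2 difference was 1.03 (SE 0.35, limma adjusted p = 1.00), and its difference between the valves, pulmonary minus aortic, was -1.18 (SE 0.50, limma adjusted p = 1.00). Col1a1, the fibrillar collagen chain, differed by -0.26 (SE 0.21).

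Against the Mylpf split the basement membrane partners went with the laminins. Nid1, Hspg2 (perlecan), Agrn, Col4a1 and Col18a1 were higher without overlap in the 6 libraries with Mylpf below 100 and Smoc2 was lower, with a median difference of 1.29 over the 17 and 14 of them above 0. Of the 20 ligands, Fn1, Fbn1 and Ltbp1 were higher without overlap and 0 lower, with 16 above 0 and a median of 0.96. The adhesion plate differed less: Parvb, Flna and Actn4 of 25 were higher without overlap and 0 lower, 18 were above 0, and the median was 0.18. Over all genes 2.60% were higher and 3.68% lower without overlap, and the median was 0.0091. All 3 lists were chosen with earlier results of these data known, and their difference from one another was not tested.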

How the data were processed

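RNA was amplified with the Ovation RNA-Seq V2 kit and sequenced from TruSeq libraries, per the labels' protocols. The submitters' processing notes name RSEM 1.2.3 and build GRCm38 beside CASAVA 1.8.2, FastQC and cutadapt 1.6, and no source used here gives the strand setting, the scaling or any filter on low values. What the authors deposited is 1 table of normalised count signal with a column per library. In each column 100% of the values come out as whole reads (tolerance 0.05), and the recovered reads scaled by TMM return them within 3.7e-07%. Amplified reads without molecular identifiers are not independent molecules, so read floors cover counting error only.

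Symbols and coordinates came from GENCODE M21 (98.7% of IDs matched, 184 did not). Levels between genes were compared per kilobase of the longest coding transcript. For 9 members exon bases are shared with another annotated gene, most for Itgam (68.7%, Gm49368) and Itga10, so their reads can be split or merged between the genes. Differences were tested with limma 3.58.1 on log2(value + 1) with a mean-variance trend, 1 mean per group over all 16 libraries, for genes reaching a value of 1 in 4 or more libraries (13963 genes, all 28 members), two-sided, with Benjamini-Hochberg adjustment over all genes and a threshold of 0.05. A fold on this scale understates the change of low genes. Alternatives used edgeR 4.0.16 and DESeq2 1.42.0 on the recovered reads, in R 4.3.3. The code was tested on simulated data. Mutant and wild-type libraries of a valve pair by litter, per the labels: their deviations correlated at 0.48, 0.01, 0.20 and 0.64 in aortic and 0.49, -0.03, 0.07 and 0.45 in pulmonary pairs.

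The members, gene lists and the Mylpf and Tbx20 values of the split were chosen with earlier results of these data known. An item that met the name rule is not reported here and is left out of every count of members. Every member was named; tests were printed for the 5 members with the smallest p in each comparison, and for context lists up to 3 genes with the smallest p.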

Additional observations from a re-analysis of the deposited data

Results flagged for a closer look

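In groups of 4 libraries, a single library stood apart from the other 3 in 5 of 112 member and group combinations, where chance gives about 5%. Itgb3 was 91.5 normalised counts in mutant aortic library 4, against 6.68 to 20.4 in the other mutant aortic libraries. Itgal was 8.39 in the same library, against 0.248 to 1.14. In the mutant aortic group only this library has Mylpf below 100. Across that split Itgb3 and Itgal differed by 1.75 and 1.62 on the log2 scale, higher below 100. The part of tissue content in these 2 values was not tested.

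Itgam was 19.4 in mutant aortic library 2, against 0.631 to 2.13 in the other mutant aortic libraries, and 18.1 in mutant pulmonary library 2, against 1.36 to 3.98 in the other mutant pulmonary libraries. The labels give these 2 libraries the same litter. Lama3 was 9.93 in mutant pulmonary library 2, against 1.36 to 2.80 in the other mutant pulmonary libraries.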

How the results depend on the processing

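Members past the adjusted threshold numbered 0 in every comparison under every alternative run. Counts over all genes, 0 in each comparison, moved to 2 (DESeq2) in pulmonary valves, to 5 (DESeq2), 2 (Mylpf split as a covariate) and 1 (replicate block by litter) in the mean of both valves, and to 1 (Mylpf split as a covariate) between valves. The block, in this paired analysis, changed no call of a member. Leaving out 1 library gave 0 to 2 genes in aortic valves (2 without wild-type aortic replicate 4) and 0 to 3 in the mean of both valves (3 without wild-type aortic replicate 4, 2 without wild-type pulmonary replicate 2). With only the 6 libraries of Mylpf below 100, an alternative chosen after seeing the data, as was leaving out the 5 libraries of Tbx20 below 200, the counts were 3 in aortic, 1 in pulmonary and 3 in the mean of both valves. There the lone mutant library of a valve is assumed to vary like the other groups.

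In those 6 libraries Itga11 reversed to -0.081 in the mean of both valves. Itgb5 in the interaction reversed to 0.19 and Itga10 between valves to -0.067 without the 5 libraries of Tbx20 below 200, and ranged from -0.066 to 0.45 when 1 library was left out. The Itga10 genotype difference ranged from -1.599 to -1.01 over its alternatives. For the split, members higher without overlap numbered 1 at a Mylpf value of 10 (1.34% of genes) and 4 at 300 (1.58%). They numbered 12 in aortic (12.1%) and 16 in mutant libraries (13.0%). Members lower numbered 1 in aortic (12.2% of genes) and 2 in wild-type libraries (10.1%). Leaving out 1 library gave 7 to 9 higher (2.65% to 4.04% of genes) and 0 lower (3.74% to 4.91%). Lama3 across the split reversed to 0.11 at 10 and at 300, 0.30 in pulmonary libraries, 0.21 without the 5 libraries, and ranged from -0.29 to 0.017 when 1 library was left out. The cause was not tested. Members with a median below 5 normalised counts rest on few reads.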
